A study of Mus musculus with 6 samples.

Results

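Actin isoforms and the heavy chains of cardiac myosin were followed in the hearts of transgenic mice that express, or do not express, PR-M, a human mitochondrial form of the progesterone receptor. The 9 genes are the 6 actins Acta1, Actc1, Acta2, Actb, Actg1 and Actg2 and the 3 myosin heavy chains Myh6, Myh7 and Myh7b. Members were the probe sets whose platform annotation gives exactly 1 of these symbols. There were 16 of them among the 45101 probe sets of the table, and 9 genes among 18193. Of the 16, 3 are Affymetrix quality controls for Actb and stayed out of the fit, which left 13 probe sets tested, 9 of actins and 4 of myosins. A further 2 probe sets carry the symbols of both Myh7 and Myh6. They are not members, and their values are given beside the members. The family was chosen by values of the same comparison, since the log2 differences of Acta1, Myh6 and Myh7 between the groups were known when it was proposed. The differences between groups below are therefore a description and support no further statement.

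Total RNA came from the apex of the ventricles and was hybridised to Affymetrix Mouse Genome 430 2.0 arrays. By the labels, 3 arrays are PR-M expressing and 3 are non-expressing. Both groups received progesterone, 2.5 mg in oil under the skin, for 19 to 21 days, so the hormone itself was not compared. The promoter of the transgene, the strain, sex and age of the mice, and the way in which expression of PR-M was established were not stated in the labels. Whether each array stands for its own animal was not stated either, and p-values here reflect only how much these samples vary, which may be technical. Sample titles carry 3 prefixes: 1 covers all expressing arrays, 1 covers non-expressing replicate 1, and 1 covers non-expressing replicates 2 and 3. No prefix held both groups, so prefix and group cannot be told apart.

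Actin forms the thin filament of muscle and myosin the thick filament, and the motor heads of the myosin heavy chains pull on actin. The adult mouse ventricle uses mainly cardiac alpha-actin, from Actc1, and alpha myosin heavy chain, from Myh6. The fetal ventricle also uses skeletal alpha-actin, from Acta1, and beta myosin heavy chain, from Myh7, and both genes are known to return when the adult heart is loaded. Acta2 and Actg2 encode smooth muscle actins, Actb and Actg1 the cytoplasmic actins of all cells, and Myh7b a slow myosin heavy chain whose gene also carries a microRNA.

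Transcription of several actin genes is known to depend on serum response factor (SRF), which binds a short A and T rich element called the CArG box. RefSeq promoters, 250 bases before to 50 after the annotated start, were at hand for 7 of the 9 genes. The 3 that hold an exact CArG box on either strand are shown, to let the letters of this element be compared between a skeletal, a cardiac and a cytoplasmic actin gene. Capitals mark the box.
Acta1 (GRCm38.p6, chr8:123894726-123895025, minus strand): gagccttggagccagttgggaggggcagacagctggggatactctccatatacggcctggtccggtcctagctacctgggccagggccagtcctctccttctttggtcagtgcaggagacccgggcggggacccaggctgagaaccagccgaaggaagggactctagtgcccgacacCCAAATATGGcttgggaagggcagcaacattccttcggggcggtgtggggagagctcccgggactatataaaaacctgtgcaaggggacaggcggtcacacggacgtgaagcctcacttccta
Actc1 (GRCm38.p6, chr2:114052826-114053125, minus strand): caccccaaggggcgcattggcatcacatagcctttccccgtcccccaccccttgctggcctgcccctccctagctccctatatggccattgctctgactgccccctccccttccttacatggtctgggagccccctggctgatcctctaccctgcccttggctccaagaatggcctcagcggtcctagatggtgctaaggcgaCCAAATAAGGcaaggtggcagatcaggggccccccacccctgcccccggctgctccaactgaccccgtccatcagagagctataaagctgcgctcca
Actg1 (GRCm38.p6, chr11:120348446-120348745, minus strand): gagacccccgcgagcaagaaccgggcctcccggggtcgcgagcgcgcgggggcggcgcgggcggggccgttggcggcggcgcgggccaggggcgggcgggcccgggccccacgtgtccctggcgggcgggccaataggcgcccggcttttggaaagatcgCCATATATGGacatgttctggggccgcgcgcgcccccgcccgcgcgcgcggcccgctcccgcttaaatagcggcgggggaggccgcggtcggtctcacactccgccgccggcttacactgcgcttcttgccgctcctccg
The box was CCAAATATGG at -73 to -64 in Acta1, CCAAATAAGG at -47 to -38 in Actc1 and CCATATATGG at -90 to -81 in Actg1, counted from the annotated start. The letters TATAAA lay at -7 to -2 in Acta1 and at 34 to 39 in Actc1. Distances to the annotated start may therefore not be comparable between these genes. An exact box was present in 1.63% of 32851 promoters of the same length. The MCAT element CATTCC, the binding motif of TEAD factors, was found on either strand in 4 of the 8 member promoters, 1 each of Acta1, Acta2, Myh6 and Myh7, and in 14.7% of all promoters. In Acta1 it lay at -46 to -41. These matches are a description of letters in this window and not evidence of binding.

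Values are log2 expression per probe set as deposited by the authors. Array medians were 5.78 to 5.79. Differences are PR-M expressing minus PR-M non-expressing, from limma over all 45037 probe sets that are not controls, with Benjamini-Hochberg adjustment and a threshold of 0.05. SE is the moderated standard error. No member passed, and the lowest adjusted p was 0.150 (limma). Over all probe sets 6 passed, or 0.0133%. At an unadjusted p under 0.05 there were 5 of the 13 members, 3 lower and 2 higher in the expressing group, beside 12.2% of all probe sets, 6.37% lower and 5.86% higher. Without the shared prior of limma no member passed either. The groups did not overlap in 6 of the 13, 3 lower and 3 higher, where the same was true of 18.6% of all probe sets, 10.3% lower and 8.27% higher. The median size of the difference, sign set aside, was 0.20 over the members and 0.10 over all probe sets.

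**Figure D1:**
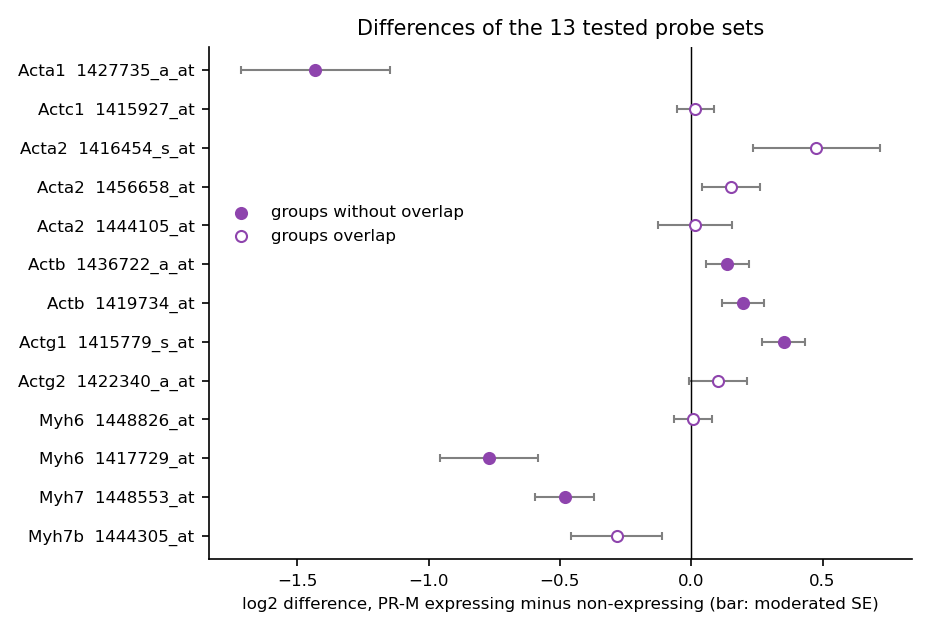
Log2 difference between PR-M expressing and non-expressing arrays for each of the 13 tested probe sets, with the moderated standard error as the bar. Filled points mark probe sets whose groups did not overlap. Acta1 lies farthest from 0 at -1.43, and the Myh6 probe set 1417729_at and Myh7 lie at -0.77 and -0.48.

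Acta1, the skeletal alpha-actin gene, was lower in PR-M expressing hearts. Its single probe set 1427735_a_at was at 10.89, 11.28 and 10.88 in the expressing arrays and at 12.86, 12.79 and 11.69 in the non-expressing arrays. The groups did not overlap, and non-expressing replicate 3 lay nearest to the expressing arrays, so the non-expressing group was the more spread of the pair. Means were 11.02 ± 0.23 in expressing and 12.45 ± 0.65 in non-expressing hearts (SD, n = 3 each), a log2 difference of -1.43 (SE 0.28) or a 2.70-fold lower level. By size this difference ranked 11 among 45037 probe sets, and it did not pass (limma adjusted p 0.150). With 1 array left out the difference stayed between -1.81 and -1.22, and over the alternative settings its adjusted p ranged from 0.0566 to 0.429. Among 18193 genes, each with its brightest probe set, the adjusted p was 0.167, and 12 genes, or 0.066%, passed. Without non-expressing replicate 3 Acta1 passed in that fit over genes (difference -1.81, limma adjusted p 0.0356).

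Actc1, the cardiac alpha-actin gene, showed no detectable difference between the groups. Its probe set 1415927_at was at 14.71, 14.70 and 14.66 in expressing arrays and at 14.67, 14.69 and 14.66 in non-expressing arrays. The ranges overlapped, with a difference of 0.02 (SE 0.07, limma adjusted p 0.951). In brightness it ranked 3 among 45037 probe sets, at the upper end of the signal range, which may leave little room to see a change.

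The smooth muscle actin genes overlapped between the groups. The bright Acta2 probe set 1416454_s_at was at 10.24, 10.58 and 10.73 in expressing arrays and at 10.56, 10.05 and 9.51 in non-expressing arrays. Non-expressing replicate 1 lay inside the range of the expressing arrays and replicates 2 and 3 below it. The difference was 0.48 (SE 0.24, limma adjusted p 0.465), and it was 0.74 without non-expressing replicate 1 and 0.21 without non-expressing replicate 3. The name ending _s_at marks probes shared by transcripts of more than 1 gene, and actin coding sequences are very alike, so signal of another actin may enter here. The other Acta2 probe sets, 1456658_at and 1444105_at, were dim, between 3.85 and 4.48 in all 6 arrays, under the array medians, and differed by 0.15 and 0.01. The difference of 1456658_at was 0.26 without expressing replicate 2 and 0.06 without expressing replicate 3, and that of 1444105_at changed sign with which array was left out. Actg2, the smooth muscle gamma-actin gene, was at 7.59, 7.61 and 7.47 in expressing arrays and at 7.37, 7.69 and 7.31 in non-expressing arrays, with a difference of 0.10 (SE 0.11, limma adjusted p 0.741). Its highest and lowest values were both in the non-expressing group, and the difference was 0.06, 0.22 and 0.03 without non-expressing replicate 1, 2 and 3 in turn.

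Smooth muscle markers beside Acta2 showed no call. Of 9 measured genes 8 had positive differences, where 44% of all genes had. Of the 9, 1 was higher without overlap, where 8.16% of all genes were, and the median was 0.08 against -0.02 over all genes. Their mean log2 level per array ran from 8.13 to 8.41 in the expressing and from 8.01 to 8.30 in the non-expressing group, and 1 of the 9 lay under the array medians in every array. Tagln, which encodes the actin-binding protein transgelin, was at 7.72, 8.42 and 8.79 in expressing arrays and at 7.95, 7.83 and 7.47 in non-expressing arrays, with a difference of 0.56 (limma adjusted p over genes 0.439). Myocd, the SRF cofactor myocardin, differed by 0.33 (limma adjusted p over genes 0.370) and was the gene of this list without overlap. Whether each marker is particular to smooth over cardiac muscle was not tested. The part of smooth muscle cells in the Acta2 values was not tested. In such bulk tissue fewer cells of a type and less RNA per cell cannot be told apart.

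The cytoplasmic actins were slightly higher in PR-M expressing hearts in every probe set. The Actg1 probe set 1415779_s_at was at 11.82, 11.76 and 11.88 in expressing arrays and at 11.55, 11.49 and 11.37 in non-expressing arrays. The groups were apart by more than the spread within either, with a difference of 0.35 (SE 0.08), or 1.28-fold, and it did not pass (limma adjusted p 0.187, from 0.0888 to 0.409 over the alternatives). Actb probe set 1436722_a_at was at 12.85, 12.77 and 12.97 in expressing arrays and at 12.69, 12.73 and 12.75 in non-expressing arrays. Actb probe set 1419734_at was at 12.19, 12.06 and 12.14 in expressing arrays and at 11.92, 12.02 and 11.86 in non-expressing arrays. In both the lowest expressing array lay just above the highest non-expressing one. Their differences were 0.14 (SE 0.08, limma adjusted p 0.525) and 0.20 (SE 0.08, limma adjusted p 0.376). Without expressing replicate 3 the first was 0.08. The Actg1 probe set is also of the shared kind, so Actb and other actins may add to its signal.

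**Figure D2:**
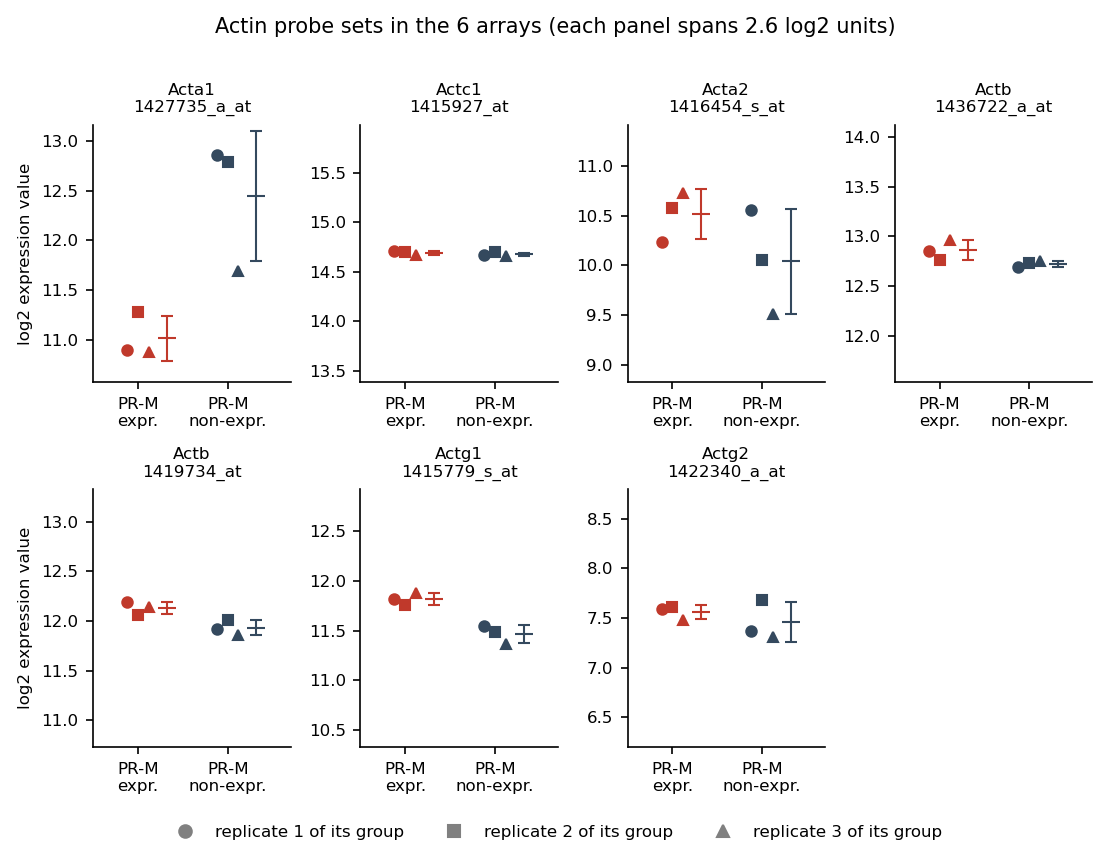
Log2 expression of 7 actin probe sets in the 3 PR-M expressing (left, red) and 3 non-expressing arrays (right, dark blue), with the mean and SD beside the points and every panel 2.6 log2 units tall. Acta1 is lower in all expressing arrays, Actc1 is level near 14.7, and the Actb and Actg1 probe sets are slightly higher in the expressing arrays.

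The 3 Actb controls read the 5′ end, middle and 3′ end of the transcript and serve as a check of RNA integrity and labelling. At the 5′ end they were at 11.87, 11.72 and 11.85 in expressing arrays and at 11.51, 11.67 and 11.49 in non-expressing arrays. In the middle they were at 12.03, 11.95 and 12.13 in expressing and at 11.85, 11.89 and 11.84 in non-expressing arrays. At the 3′ end they were at 13.07, 13.01 and 13.04 in expressing and at 12.93, 12.98 and 12.91 in non-expressing arrays. All 3 were higher in the expressing group without overlap, and their differences were 0.26 at the 5′ end, 0.18 in the middle and 0.10 at the 3′ end (two-sided exact permutation p = 0.1 each, the smallest that 3 against 3 arrays allow, and 0.12 adjusted over 6 control measures). The 3′ minus 5′ value was 1.20, 1.28 and 1.20 in expressing and 1.43, 1.30 and 1.42 in non-expressing arrays. It was lower in the expressing group without overlap, with a difference of -0.16 (two-sided exact permutation p = 0.1, adjusted 0.12). The Actb gene thus had 5 probe sets in all, each without overlap between the groups, which read 1 transcript and are no replicates of each other.

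**Figure D3:**
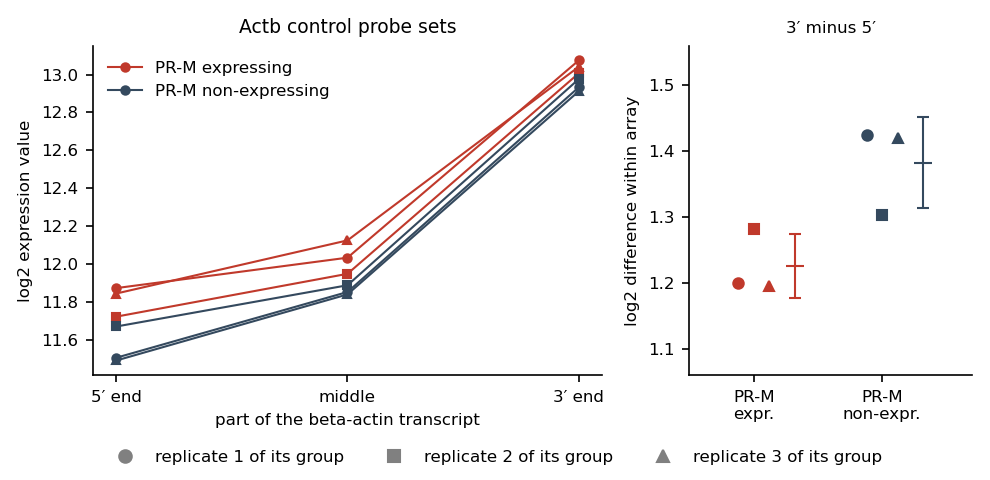
Left, log2 values of the Actb control probe sets at the 5′ end, middle and 3′ end, 1 line for each array, PR-M expressing in red and non-expressing in dark blue. Right, the 3′ minus 5′ value of each array with mean and SD, 1.23 ± 0.05 in expressing and 1.38 ± 0.07 in non-expressing arrays.

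Of the other control values, 18S ribosomal RNA moved with the groups and Gapdh did not separate them. Control probe sets of 18S ribosomal RNA, 3 in number, averaged 8.31 ± 0.22 in expressing and 9.88 ± 0.38 in non-expressing arrays (SD, n = 3 each), and the groups did not overlap (two-sided exact permutation p = 0.1). The 3′ minus 5′ value of Gapdh overlapped, at 0.17 ± 0.06 in expressing and 0.25 ± 0.07 in non-expressing arrays (SD, n = 3 each, two-sided exact permutation p = 0.3). The 18S mean was at 8.50, 8.07 and 8.37 in expressing arrays and at 10.31, 9.76 and 9.57 in non-expressing arrays. The part of the control values in the members' differences was not tested.

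Myh6, the gene of the adult alpha myosin heavy chain, gave 2 different pictures. The bright probe set 1448826_at was at 14.62, 14.57 and 14.56 in expressing arrays and at 14.59, 14.58 and 14.57 in non-expressing arrays, of rank 5 in brightness and thus also at the top of the scale. The groups overlapped, with a difference of 0.01 (SE 0.07, limma adjusted p 0.982). The dimmer probe set 1417729_at was at 8.39, 7.91 and 8.00 in expressing arrays and at 9.27, 8.78 and 8.57 in non-expressing arrays. It was lower in all expressing arrays, by -0.77 on the log2 scale (SE 0.19), or 1.71-fold, and did not pass (limma adjusted p 0.198, from 0.127 to 0.463 over the alternatives). The per-array gap between the bright and the dimmer probe set was wider in the expressing group by 0.78, without overlap (two-sided exact permutation p = 0.1, and 0.25 adjusted over 5 probe set pairs). The bright and the dimmer probe set of Myh6 thus differed unequally between the groups.

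The probe sets annotated to both Myh7 and Myh6 showed the same split. The bright one, 1448554_s_at, was at 14.52, 14.46 and 14.52 in expressing arrays and at 14.50, 14.43 and 14.44 in non-expressing arrays, with overlap and a difference of 0.04 (SE 0.07). The dimmer one, 1448827_s_at, was at 8.61, 8.24 and 8.58 in expressing arrays and at 9.59, 8.98 and 8.97 in non-expressing arrays. It was lower without overlap, with a difference of -0.70 (SE 0.18, limma adjusted p 0.214). Against the dimmer Myh6 probe set its gap differed between the groups by 0.07 in size, with overlap (exact permutation p = 0.6, two-sided). Which transcript the dimmer pair reads cannot be told from the symbols.

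Myh7, the gene of the beta myosin heavy chain, was lower in PR-M expressing hearts, less so than Acta1. Its own probe set 1448553_at was at 9.75, 9.97 and 9.82 in expressing arrays and at 10.13, 10.33 and 10.51 in non-expressing arrays. The groups did not overlap, and the difference was -0.48 (SE 0.11), or 1.40-fold. It did not pass (limma adjusted p 0.188, from 0.0919 to 0.432 over the alternatives), and with 1 array left out it stayed between -0.58 and -0.39. Myh7b was at 8.29, 7.76 and 8.33 in expressing arrays and at 8.68, 8.33 and 8.22 in non-expressing arrays. Its groups overlapped, with a difference of -0.28 (SE 0.17, limma adjusted p 0.536) that was -0.10 without expressing replicate 2, the lowest array.

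**Figure D4:**
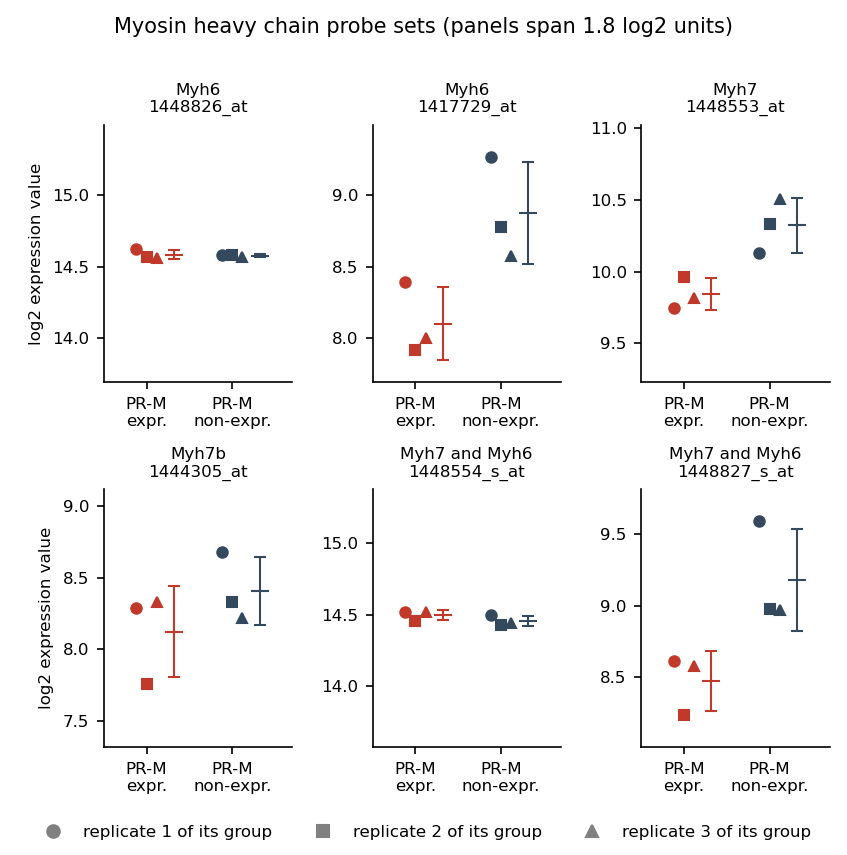
Log2 expression of the 4 myosin heavy chain member probe sets and the 2 probe sets shared by Myh7 and Myh6, PR-M expressing left in red and non-expressing right in dark blue, with mean and SD, every panel 1.8 log2 units tall. The bright probe sets near 14.5 are level, and 1417729_at, 1448827_s_at and Myh7 are lower in all expressing arrays.

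The order of the non-expressing arrays differed between the members that were lower. In Acta1 and the dimmer Myh6 probe set replicate 1 was the highest and replicate 3 the lowest, while in Myh7 replicate 3 was the highest and replicate 1 the lowest. Over the 6 arrays Acta1 had a Pearson r of 0.86 with the dimmer Myh6 probe set, 0.64 with Myh7 and -0.72 with Actg1, and Myh7 had one of -0.97 with Actg1. These are descriptions over 6 arrays that fall into 2 groups, which by itself sets much of such a value.

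Genes most like Acta1 and Myh7 were taken from 1020 named probe sets with a mean over 8 and an SD of at least 0.2. The 5 most like Acta1 were Homer2, a postsynaptic scaffold gene also active in muscle (r 0.95), Cobl, which encodes an actin nucleator (0.92), Prodh, proline dehydrogenase (0.92), Nppb, brain natriuretic peptide (0.91), and Slc6a6, the taurine transporter (0.91). All 5 were lower in the expressing group, from -0.34 for Cobl to -1.56 for Nppb. Nppb was at 11.14, 11.11 and 11.67 in expressing arrays and at 13.12, 12.97 and 12.50 in non-expressing arrays, with the same non-expressing order as Acta1. Those most like Myh7 were Sorl1 (r 1.00), Bola2 (0.98), Lyrm2 (0.98), Cib1 (0.98) and C1qtnf12 (0.97), with differences from -0.39 to -0.32. An r above 0.9 was reached by 5 of the 1020 with Acta1 and by 37 with Myh7. Both sets were picked by r with a gene whose groups did not overlap. Their shared direction, and the order of the arrays in Nppb, thus largely follow from the choice and are no result.

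Genes that act on actin and myosin were read in the fit over genes, where the median difference was -0.02, 44% of genes had a positive difference and the groups did not overlap in 19% (8.16% higher and 10.8% lower). Of 12 thin filament partners none passed, 9 were positive and 3 negative, and 2 did not overlap (median 0.07). Lmod2, which encodes leiomodin 2, an elongator of thin filaments, was at 12.52, 12.64 and 12.59 in expressing and at 12.78, 12.98 and 12.73 in non-expressing arrays (difference -0.25, limma adjusted p 0.382). Nebl, the gene of the Z-disc protein nebulette, differed by 0.20 (adjusted p 0.405).

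Of 18 genes of actin filament turnover none passed, 14 were positive, and 4 did not overlap, all of these higher (median 0.07). Actr3, a subunit of the Arp2/3 complex that branches actin filaments, was at 11.32, 11.09 and 10.93 in expressing arrays and at 10.64, 10.89 and 10.84 in non-expressing arrays (difference 0.32, limma adjusted p 0.367). Tmsb10, which encodes the actin monomer binder thymosin beta 10, differed by 0.27 (adjusted p 0.398). Of 16 chaperone genes for actin and myosin none passed, 5 were positive and 11 negative, and 1 did not overlap (median -0.04). The prefoldin genes Pfdn1 and Pfdn5, which hand new actin to its folding machine, differed by -0.20 and -0.15 with overlap (adjusted p 0.459 and 0.577).

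Of 7 measured genes of SRF and its cofactors none passed, 6 were positive and 2 did not overlap, 1 higher and 1 lower (median 0.04). The higher one was Myocd (difference 0.33, limma adjusted p over genes 0.370). The negative one was Abra, which encodes an actin-binding activator of SRF signalling in striated muscle. Abra was at 7.86, 7.75 and 8.35 in expressing arrays and at 9.47, 8.60 and 8.57 in non-expressing arrays, without overlap, with a difference of -0.89 (SE 0.25, limma adjusted p over genes 0.304), and one of -0.59 without non-expressing replicate 1. Among 14 SRF target genes none passed, 10 were positive and 3 did not overlap, all of these higher (median 0.13), with 0.19 for the calponin gene Cnn2 and 0.24 for the filamin gene Flna (adjusted p 0.396 and 0.405).

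Of 9 TEAD factors and cofactors none passed, 4 were positive, and 2 did not overlap (median 0.00). Vgll3, a TEAD cofactor gene, was at 6.27, 6.11 and 6.28 in expressing arrays and at 5.64, 5.55 and 5.93 in non-expressing arrays (difference 0.52, limma adjusted p 0.208), and Tead1 differed by -0.10 (adjusted p 0.647). Of 12 genes of thyroid hormone action and of the choice between Myh6 and Myh7 none passed, 8 were positive and 3 did not overlap, all of these higher (median 0.07). Pura, which encodes a DNA-binding protein known to act on Myh6, differed by 0.24 (adjusted p 0.352), and Med13, a Mediator subunit gene of the heart's thyroid hormone response in mice, by 0.25 (adjusted p 0.409). Of 9 other myosin heavy chain genes none passed, 3 were positive and 1 did not overlap (median -0.06). Myh14, a non-muscle myosin gene, differed by 0.21 and Myh8, the perinatal skeletal gene, by -0.27 at a dim level (adjusted p 0.408 each).

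**Figure D5:**
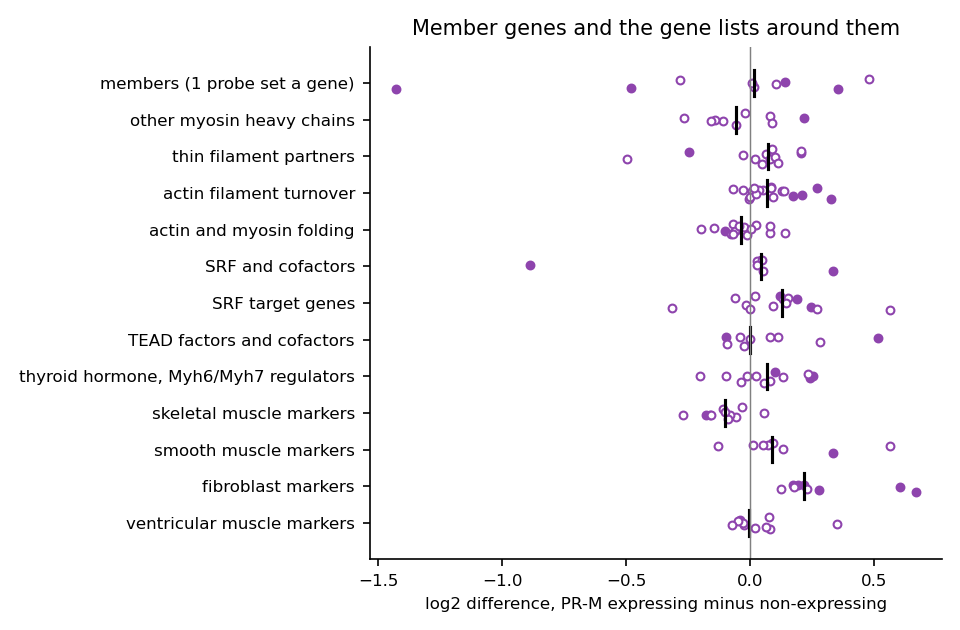
Log2 difference, PR-M expressing minus non-expressing, of each member gene (brightest probe set) and of each gene of the 12 lists named on the axis, 1 point per gene with a black bar at the median. Filled points did not overlap between groups. Among these plotted lists the medians lie between -0.10 for skeletal muscle markers and 0.22 for fibroblast markers, and Acta1 is at -1.43.

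Of 12 genes of the hypertrophy and fetal programme other than actins and myosin heavy chains, 3 passed over genes. The atrial myosin light chain genes Myl7 (difference 3.45, limma adjusted p 0.0348) and Myl4 (3.60, adjusted p 0.0451) rose and Nppb fell (-1.56, adjusted p 0.0453), and the median of the list was 0.00. These 3 calls lie close to the threshold and were lost with the title prefix as block (adjusted p 0.0882, 0.0987 and 0.0990), and leaving out any 1 array ended at least 1 of them. Of the 12, 6 were positive and 6 negative. Nppa, the atrial natriuretic peptide gene, named after its values were seen, was at 9.07, 11.27 and 10.24 in expressing arrays and at 10.74, 8.39 and 8.39 in non-expressing arrays, with overlap and a difference of 1.02 (limma adjusted p 0.603).

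Markers of cell types that could add to the actin and myosin signal are given as measured. Their counts stand beside 44% of all genes positive and 19% without overlap, 8.16% higher and 10.8% lower. The 10 ventricular muscle markers overlapped in their list means, from 13.26 to 13.34 in expressing and from 13.21 to 13.38 in non-expressing arrays and a median difference of 0.00, and none lay under the array medians. Their lowest p belonged to Ryr2, the gene of the calcium release channel (difference 0.35), and Tnnt2, that of cardiac troponin T (0.08), with limma adjusted p of 0.569 and 0.717. Myl2, Myl3, Tnnt2, Tnni3, Pln and Tnnc1 of this list ranked from 2 to 31 in brightness. They lay at the upper end of the signal range, which may leave little room to see a change. This was not tested. Whether each marker is particular to ventricular over atrial muscle was not tested. Of 11 skeletal muscle markers, relevant to Acta1, 10 were negative with a median of -0.10 and 2 without overlap. Their list means ran from 5.45 to 5.51 in expressing and from 5.57 to 5.60 in non-expressing arrays, and 6 of the 11 were under the array medians in every array. Actn3, the gene of a fast-fibre alpha-actinin, differed by -0.18 without overlap (limma adjusted p 0.451). Mylpf, a fast myosin light chain gene, differed by -0.27 with overlap (limma adjusted p 0.458). Mylpf lay between 5.52 and 6.10 over all arrays, around the array medians. Of 9 atrial markers 6 were positive and 3 negative, and 4 did not overlap, all of these higher. The negative ones were Bmp10 (-0.03), Nr2f2 (-0.09) and Gja5 (-0.09), and Nppa and Stard10 were positive with overlap. List means of the atrial markers ran from 8.09 to 8.98 in expressing and from 7.05 to 7.16 in non-expressing arrays. Of the 9 genes 3 passed, all higher and lost with the title prefix as block. Beside Myl4 and Myl7 the third was Sln, which encodes the calcium pump inhibitor sarcolipin. Sln was at 8.14, 10.24 and 8.38 in expressing and at 4.99, 5.17 and 4.94 in non-expressing arrays, where it lay under the array medians (difference 3.89, limma adjusted p 0.0451, and 0.0987 with the block). The call of Sln was also lost without expressing replicate 3 (adjusted p 0.121) or non-expressing replicate 1, 2 or 3 (0.0743, 0.191 and 0.147), with an intensity trend and robust prior (0.132), with no shared prior (0.303) and without _x_at and _s_at probe sets (0.0506).

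Fibroblast markers, relevant to the cytoplasmic actins, were higher in expressing arrays in 9 of 9 genes, where 44% of all genes were. Of the 9, 6 were higher without overlap, where 8.16% of all genes were, and none of the 9 passed. Their list means ran from 10.50 to 10.70 in expressing and from 10.29 to 10.35 in non-expressing arrays, with a median difference of 0.22. Fn1, the fibronectin gene, differed by 0.60 and Postn, the periostin gene, by 0.67 (limma adjusted p 0.201 and 0.255). Endothelial markers had 5 of 7 genes positive with 2 without overlap (list means 9.06 to 9.09 in expressing, 8.87 to 8.97 in non-expressing arrays). Vwf differed by 0.73 with overlap and Emcn by 0.29 without overlap (limma adjusted p 0.333 and 0.403). Leukocyte markers had 4 of 7 positive and none without overlap (list means 8.09 to 8.47 in expressing, 7.97 to 8.56 in non-expressing arrays), with -0.16 for the macrophage gene Adgre1 and 0.28 for the lysozyme gene Lyz2 (limma adjusted p 0.609 and 0.658). The part of other cell types in the Actb, Actg1 and Acta1 differences was not tested.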

How the data were processed

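The table deposited by the authors holds a log2 value for each probe set on each array. RMA and Partek 6.6 are named, without role or order, per the submitters' processing notes, and the scale is inferred from the values. RMA scales arrays to one another, so each difference is relative to the other genes. Of 45101 probe sets, 64 controls were left out of the fit. Genes came from the platform annotation, set against RefSeq GRCm38.p6 through gene identifiers, which changed 0 symbols. Promoters are from RefSeq.

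Groups (3 and 3 arrays) were compared with limma 3.58.1 in R 4.3.3 (lmFit, eBayes, two-sided, Benjamini-Hochberg) over 45037 probe sets, and over 18193 genes with the p of the brightest probe set of each gene. Control values and gaps between probe sets were compared by exact permutation. The precision is limited by the number of arrays. The members, gene lists and the rule for named genes were chosen with earlier results of these data known: the rule took all members, from each list the genes past the threshold or otherwise the 2 with the lowest p, and the 5 probe sets most like Acta1 and Myh7. Lists were described by counts and medians with no test. Alternatives were other scalings, a filter on dim probe sets (mean of 6 or less), other priors, array weights, sample title prefix entered as random block (duplicateCorrelation, statmod 1.5.0), other probe sets of a gene, and leaving out each array.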

Additional observations from a re-analysis of the deposited data

How the results depend on the processing

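None of the 13 member probe sets passed under any of the 16 alternatives that tested it, and between 5 and 8 of them had groups without overlap. Acta1, Actg1, Myh7, Myh7b, Actg2, both Actb, the dimmer Myh6 and 2 of the Acta2 probe sets, 10 in all, kept their direction throughout. The sign turned only for differences close to 0. With cyclic loess Actc1 differed by -0.0047 and the bright Myh6 probe set by -0.014, and with 1 array left out the bright Myh6 probe set ranged from -0.012 to 0.017 and the Acta2 probe set 1444105_at from -0.086 to 0.17. The cause was not tested. The number of probe sets called over the whole table, 6, was 35 with the filter on dim probe sets, 37 with an intensity trend and robust prior, 43 with array weights and 2 without the shared prior, and it ran from 0 to 44 with 1 array left out. The number of genes called, 12, was 19, 23, 26 and 1 under the same settings in that order. It was 4 when the title prefix was a random block, 3 without _x_at and _s_at probe sets, 1 when a gene's probe sets were averaged and 0 to 18 with 1 array left out. With the prior estimated from the genes alone, an alternative chosen after seeing the data, 4 genes passed. Member genes called were 0 to 1 with 1 array left out, the 1 being Acta1 without non-expressing replicate 3. No paired analysis was possible because the replicate numbers only follow accession order, the titles of the groups share fewer than 2 numbers, and nothing in the labels ties a number to an animal, litter or batch.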
